A study of Danio rerio with 21 samples.

Results

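Loss of *pomgnt2* in the larva itself was examined by setting maternal-zygotic knockouts (MZKOs) against their heterozygous brothers and sisters (MHets) at 5 days post fertilization (dpf). The comparison rested on 6 of the 21 RNA-sequencing samples, 3 MZKO and 3 MHet pools, which were chosen by their labels and not by any measured value. Each sample was a pool of 4 to 6 whole zebrafish larvae of the EK strain, so every value is an average over larvae and over all tissues. MZKOs were *pomgnt2* -/- and MHets were *pomgnt2* +/-, and both came from crosses of a -/- mother with a +/- father. All larvae in both groups therefore lacked a functional maternal supply of *pomgnt2*, and they differed in whether the father's functional copy was inherited. The remaining 5 dpf pools came from crosses of +/- parents and were -/- larvae (zygotic knockouts, ZKOs), +/- larvae (Hets) and wild-type larvae (WTs), 3 pools of each. A second batch held 3 MZKO and 3 MHet pools at 10 dpf. The alleles were CRISPR-induced frameshifts in the coding exons of one line, and transcript from the mutated gene can still be read. The study asked what had already changed in MZKO transcripts before muscle damage sets in, although swimming is already affected.

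POMGNT2 is an enzyme of the endoplasmic reticulum that adds N-acetylglucosamine to O-mannose on α-dystroglycan, an early step in building matriglycan, the sugar chain that binds laminin and other matrix proteins. Dystroglycan sits in the dystrophin-glycoprotein complex (DGC), which links the cytoskeleton of the muscle fiber to the basement membrane. In humans, loss of matriglycan causes the congenital muscular dystrophies called dystroglycanopathies, which affect muscle, brain and eye. Zebrafish eggs are loaded with maternal transcripts and proteins, which can cover for a missing embryonic gene during early development.

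The 6 libraries held between 18566356 and 22439739 counts over 36351 genes, and expression is given as CPM, the count relative to library size after TMM scaling, which corrects for differences in library composition. At this depth 3 counts, the limit that a count of 0 allows, corresponded to 0.137 to 0.156 CPM. Replicate pools of a group differed well beyond sampling noise, and no pair of libraries within a group looked like one library deposited again. Labels did not say whether pools came from separate clutches, so p-values measure the spread between pools, estimated over all 15 pools at 5 dpf. The targeted gene could not check the labels, because its transcript persists. *pomgnt2* was at 19.1, 18.8 and 19.1 CPM in MZKOs, against 14.4, 14.5 and 18.1 CPM in MHets, with a log2 fold change of 0.28 ± 0.11 (SE) and an adjusted p of 0.11.

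MZKO larvae differed from MHets in 220 genes out of 24846 tested, of which 145 were higher and 75 were lower. A gene was called differentially expressed (a DEG) when its edgeR quasi-likelihood test gave a Benjamini-Hochberg adjusted p below 0.01 and the log2 fold change exceeded 0.7 in either direction. The higher DEGs made up 0.584% and the lower DEGs 0.302% of all genes tested. At an adjusted p under 0.05 with no limit on size, 1320 genes were higher (5.31%) and 1078 were lower (4.34%). Of all genes tested, 48.3% had a log2 fold change above 0. These shares are the background for the counts within gene lists and marker lists below. In whole larvae, fewer cells of a type and less RNA per cell cannot be told apart. Most changes were modest, with a median log2 fold change of 0.86 among the higher and -0.96 among the lower DEGs. Only 74 DEGs passed an absolute log2 fold change of 1, 21 passed 2 and 5 passed 4. The 3 MZKO pools did not overlap the 3 MHet pools for any of the 220 DEGs, while 8149 of all genes tested (32.8%) were also without overlap. When library totals replaced TMM, 236 DEGs were higher and 56 were lower, so that the higher share was 80.8% in place of 65.9%. The count was most sensitive to MHet pool 1, without which 114 DEGs were called, 109 of them among the 220.

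The gene with the smallest p was *mturn*, which encodes maturin, a regulator of neural differentiation in frogs. It was at 87.5, 72.2 and 97.1 CPM in MZKOs, against 10.8, 12.8 and 9.19 CPM in MHets, a 7.83-fold difference (log2 2.97 ± 0.13, adjusted p = 5.2e-13). MHets sat at the level of the other crosses, where ZKOs averaged 10.7, Hets 8.89 and WTs 8.79 CPM, so the MZKO pools alone were high. *adpgk2*, an ADP-dependent glucokinase, showed the same separation with 26.3, 19.3 and 21.3 CPM in MZKOs and 2.82, 3.3 and 2.51 CPM in MHets (log2 2.95 ± 0.23, adjusted p = 3.9e-08). *snx6*, a sorting nexin of the retromer that returns cargo from endosomes, was at 39.2, 37.8 and 31.6 CPM in MZKOs and 6.23, 4.72 and 6.67 CPM in MHets (log2 2.62 ± 0.20). *ube2j2*, a ubiquitin-conjugating enzyme of endoplasmic reticulum quality control, was at 22.7, 18.4 and 20.6 CPM in MZKOs and 4.73, 4.32 and 4.74 CPM in MHets (log2 2.16 ± 0.18). None of these genes overlapped between MZKOs and any other 5 dpf pool. The activin receptor gene *acvr2ba*, whose product also binds the muscle growth inhibitor myostatin, was at 17.8, 14.1 and 20.9 CPM in MZKOs and 5.01, 4.12 and 3.43 CPM in MHets (log2 2.07 ± 0.20, adjusted p = 9.9e-07).

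**Figure D1:**
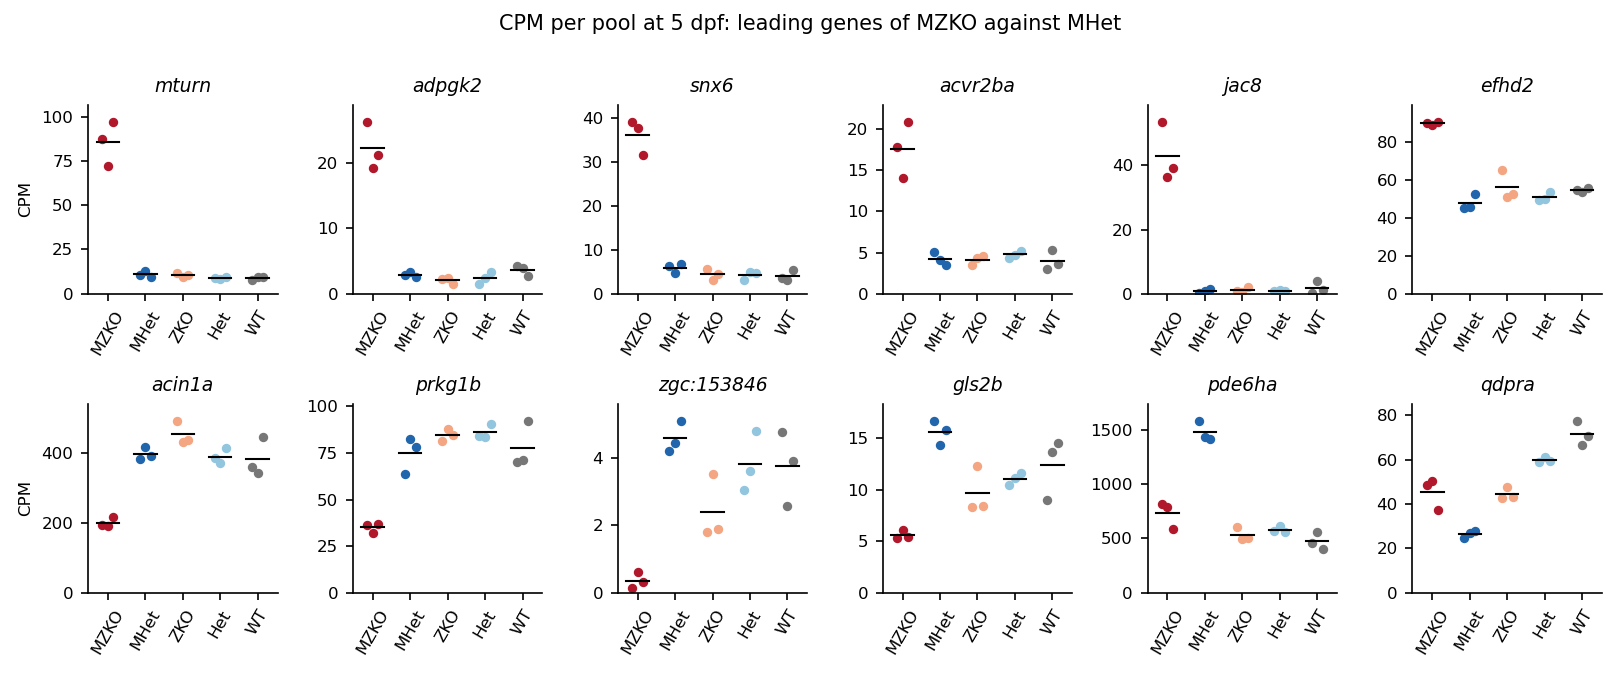
Expression in CPM (linear y axis) of 6 genes that were higher in MZKOs (top row) and 6 genes that differed in the lower direction or by departure of the MHets (bottom row), for the groups MZKO, MHet, ZKO, Het and WT at 5 dpf. Points are pools and bars are means of 3 pools. *mturn* lay between 72.2 and 97.1 CPM in MZKOs against 9.19 to 12.8 CPM in MHets, while for *pde6ha* and *qdpra* the MHets were the pools that stood apart.

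Further leading genes rose less but with little spread between pools. *efhd2*, a calcium-binding EF-hand protein, was at 90.3, 89.3 and 90.7 CPM in MZKOs and 45.3, 45.9 and 52.6 CPM in MHets (log2 0.91 ± 0.09, adjusted p = 9.9e-07). *ldb1b*, a cofactor of LIM-domain transcription factors, was at 111, 118 and 111 CPM in MZKOs and 54.6, 62 and 57.3 CPM in MHets (log2 0.96). Genes with increases of 1 to 2 log2 units included the receptor tyrosine phosphatase gene *ptprga* (1.37), *ccdc50* (1.27), *jarid2b*, a partner of Polycomb repressive complexes (1.66), and *lenep*, named for the lens epithelium (1.98). *OSBPL8*, a lipid transfer protein between the endoplasmic reticulum and the plasma membrane, rose by 2.03. The actin-capping gene *tmod2* (0.76) and the 14-3-3 gene *ywhae2* (0.77) had the smallest changes among the 15 higher genes with the smallest p, and both lost the call without MHet pool 1. The uncharacterized *LOC108179656* completed this group at 1.85.

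The steepest increases were in a cluster of *jac* genes, named for the jacalin type of carbohydrate-binding domain. *jac8* was at 53.6, 36.5 and 39.2 CPM in MZKOs, against 0.319, 0.813 and 1.31 CPM in MHets (log2 5.73 ± 0.67, adjusted p = 0.00061). *jac9* was at 45.8, 32.2 and 38 CPM in MZKOs, against 0.637, 0.254 and 0.338 CPM in MHets (log2 6.52 ± 0.77, adjusted p = 0.00066). *jac6* had 83, 76 and 114 counts in MZKOs and 0, 0 and 2 counts in MHets, a ratio of 140 with an exact 95% interval of 38.4 to 1.16e+03 that covers counting error only. *jac6*, *jac9* and *jac8* are neighbors in the RefSeq gene order and share a family name, their sequences were not compared here, and reads may have been divided between them if they are alike, so the level of each is uncertain. Summed over the 9 *jac* genes in the table, expression was 92.6 ± 17.3 CPM in MZKOs and 5.17 ± 1.31 CPM in MHets (SD, n = 3), and the means were 4.71 CPM in ZKOs, 4.3 in Hets and 6.52 in WTs. The uncharacterized *LOC564660* behaved alike, with 44.2, 33.8 and 25.4 CPM in MZKOs and 0.091, 0.305 and 0.629 CPM in MHets (log2 6.65), but was not called without MHet pool 1. *si:ch211-59p23.1* rose by 4.03 on the log2 scale, with 4.49, 3.15 and 2.13 CPM in MZKOs and 0.182, 0.356 and 0.0483 CPM in MHets. These 5 genes were the ones past an absolute log2 fold change of 4.

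Among the lower genes, *acin1a*, which encodes the splicing-associated protein acinus, was at 193, 192 and 217 CPM in MZKOs and 384, 419 and 391 CPM in MHets (log2 -0.98 ± 0.10, adjusted p = 9.1e-07). *prkg1b*, a cGMP-dependent protein kinase, was at 36.5, 32 and 37.1 CPM in MZKOs and 63.8, 82.6 and 78.2 CPM in MHets (log2 -1.09 ± 0.11). *dusp27*, an atypical phosphatase needed for myofiber organization in zebrafish, was at 40.4, 43.5 and 41.6 CPM in MZKOs and 106, 81.3 and 79.3 CPM in MHets (log2 -1.09 ± 0.10). The ranges were thus well apart, and for *dusp27* both groups lay outside all other 5 dpf pools, MZKOs below them and MHets above. The glutaminase gene *gls2b* fell by 1.48, the adiponectin receptor gene *adipor2* by 0.89, *rab11fip1b*, an adaptor of recycling endosomes, by 1.07, and the muscle-enriched taxilin gene *txlnbb* by 0.76. The transcription factor gene *cebpd* fell by 0.91, the transcriptional corepressor gene *nkap* by 0.79 and *pho* by 0.97. The *txlnbb* call was lost without MHet pool 1 or MHet pool 2. The most reduced genes were *XLOC_042919*, at 0.296, 0.0942 and 0.156 CPM in MZKOs and 2.73, 2.85 and 2.47 CPM in MHets (log2 -3.84), and *zgc:153846*, at 0.148, 0.612 and 0.311 CPM in MZKOs and 4.23, 4.47 and 5.12 CPM in MHets (log2 -3.65). Both MZKO levels were near the floor of the depth. *LOC108190134* (-2.79), *klhl38b* (-2.44) and *tnks1bp1* (-2.24) completed the 5 most reduced DEGs, and *si:dkey-199f5.6* fell by 2.03. *LOC108190134* averaged 0.264 CPM in MZKOs, also near the floor, and 1.86 CPM in MHets. The most abundant of these reduced genes was *tnks1bp1*, a partner of tankyrase, at 13.6, 14.5 and 19.6 CPM in MZKOs and 66.4, 81.2 and 77.5 CPM in MHets.

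A DEG can arise because MZKOs moved away from every other 5 dpf pool or because MHets did. MZKOs lay outside the range of the other 12 pools for 150 of the 220 DEGs, 96 higher and 54 lower, against 8.9% of all genes tested. MHets lay outside the range of the other 12 pools for 47 DEGs, against 5.9% of all genes tested. In 9 DEGs both were true, and in 32 neither was. These shares describe genes selected for the MZKO and MHet difference, so they are no test. One of the genes for which MHets stood apart was the cone phosphodiesterase inhibitor gene *pde6ha*, at 820, 787 and 590 CPM in MZKOs and 1586, 1432 and 1419 CPM in MHets, while ZKOs averaged 535, Hets 581 and WTs 476 CPM. *qdpra*, which regenerates tetrahydrobiopterin, was at 48.5, 50.5 and 37.1 CPM in MZKOs and 24.8, 27.1 and 27.6 CPM in MHets, with averages of 44.5 in ZKOs, 60 in Hets and 71.7 CPM in WTs. A pair of genes chosen after their values were seen shared this pattern. The ubiquitin gene *ubb* was at 993, 1017 and 1032 CPM in MZKOs and 1778, 1616 and 1586 CPM in MHets (log2 -0.71), and the myelin gene *pmp22b* at 111, 116 and 119 CPM in MZKOs and 64.9, 66.5 and 69.8 CPM in MHets (log2 0.79). The call was lost for *qdpra* without MZKO pool 2 and for *ubb* without MZKO pool 1 or MHet pool 1.

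Dystroglycan and its partners were next. *dag1*, which encodes dystroglycan, was at 108, 116 and 115 CPM in MZKOs, against 89.7, 90.7 and 86.9 CPM in MHets. Its 1.27-fold difference passed the test (log2 0.34 ± 0.07, adjusted p = 0.0046) but not the size limit, and all MZKO pools were above every other 5 dpf pool. A list of 22 genes held *dag1*, genes for enzymes that build matriglycan and genes of wider glycosylation such as *dpagt1*, *dolk* and *dpm1*. Only *dag1* was past an adjusted p of 0.05. Of the 22 genes, 15 were higher and 7 lower with a median of 0.15, against -0.012 over all genes tested. The same list in ZKOs over Hets at 5 dpf had 17 genes higher and 5 lower, with a median of 0.09, and none passed. Of 17 DGC genes in MZKOs over MHets, 5 passed an adjusted p of 0.05, all higher, and 2 were DEGs. Over all genes tested, 5.31% were higher at that limit and 0.584% were higher DEGs. *sgcd*, the δ-sarcoglycan that steadies dystroglycan in the membrane, was at 86.2, 81.1 and 77 CPM in MZKOs and 38, 54.5 and 54 CPM in MHets (log2 0.74 ± 0.11, adjusted p = 0.00013). ZKOs, Hets and WTs averaged 67.9, 71 and 72.4 CPM, so MHets were below all other pools for *sgcd*. *sntb2*, the β2-syntrophin that docks signaling proteins on dystrophin, was at 24.8, 25.3 and 25.7 CPM in MZKOs and 14.7, 13.7 and 17.8 CPM in MHets (log2 0.71 ± 0.12, adjusted p = 0.00073). For *sntb2* neither group lay outside the range of all other 5 dpf pools. The dystrobrevin gene *dtnbb* passed at a log2 fold change of 0.40. The *sgcd* call was lost without MZKO pool 1 or MHet pool 1, and that of *sntb2* without MZKO pool 3, MHet pool 1 or MHet pool 2.

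Integrins are a second set of matrix receptors, and 26 of 30 integrin chain genes were higher in MZKOs, with a median log2 fold change of 0.38. Of these, 9 passed an adjusted p of 0.05, all higher, and 2 were DEGs. Over all genes tested, 48.3% were higher, 5.31% passed higher and 0.584% were higher DEGs. In ZKOs over Hets at 5 dpf, 23 of the 30 integrin genes were also higher, with a median of 0.12, and none passed. *itgb3a*, a β3 integrin chain, was at 26.8, 26.3 and 29.8 CPM in MZKOs and 14.3, 14.1 and 15.6 CPM in MHets (log2 0.92 ± 0.15, adjusted p = 0.0005). It was called without any single pool, and MZKOs were above all other 5 dpf pools. Its paralog *itgb3b* was at 9.57, 9.32 and 9.96 CPM in MZKOs and 4.55, 5.89 and 6.38 CPM in MHets (log2 0.78 ± 0.16, adjusted p = 0.0033), a call that held in 1 of 6 fits with a pool left out. For *itgb3b* neither group lay outside the range of all other 5 dpf pools. *itgav*, the αv chain that pairs with β3, passed at 0.44 with 193, 178 and 181 CPM in MZKOs and 133, 130 and 142 CPM in MHets.

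Matrix and caveolar genes were examined next. Of 56 genes in the collagen list, 45 were higher and the median was 0.23, and 20 passed an adjusted p of 0.05, all higher. The shares over all genes tested were 48.3% higher, and 5.31% higher past that limit. In ZKOs over Hets at 5 dpf, 32 collagen list genes were higher and 24 lower, with a median of 0.04, and none passed. The list included *col4a3bpa* (0.23) and *col4a3bpb* (0.06), which are not collagen chains and did not pass. The only collagen DEG was the basement membrane chain *col4a4*, at 4.93, 4.19 and 5.66 CPM in MZKOs and 1.77, 2.08 and 3.63 CPM in MHets (log2 0.98 ± 0.24, adjusted p = 0.0095), and it was called in 1 of 6 fits with a pool left out. The more abundant *col4a1* was at 71.9, 71.6 and 71.5 CPM in MZKOs and 39.4, 53 and 52.4 CPM in MHets (log2 0.57 ± 0.11), and for both chains MHets were below every other pool. The 13 laminin chain genes had a median of 0.22, and the laminin β2 gene *lamb2* had the smallest p among them (log2 0.44, adjusted p = 0.0029). *cav1*, the caveolin that shapes membrane pits called caveolae, was at 134, 130 and 116 CPM in MZKOs and 70.4, 80.5 and 79.1 CPM in MHets (log2 0.73 ± 0.09, adjusted p = 3.2e-05). *cavin1a*, a coat protein of caveolae, rose by 0.79 with 16.6, 19.3 and 17.2 CPM in MZKOs and 7.74, 12.4 and 10.6 CPM in MHets, and its paralog *cavin1b* passed at 0.58. Of 12 caveolar genes 2 were DEGs and 4 passed an adjusted p of 0.05, all higher. *cav1* lost the call without MZKO pool 1 or MHet pool 1 and *cavin1a* without MZKO pool 2 or MHet pool 1. At the neuromuscular junction, 10 of 11 genes were higher with a median of 0.28 and 4 passed, led by *colq*, the collagen tail that anchors acetylcholinesterase (log2 0.58, adjusted p = 0.002). In ZKOs over Hets at 5 dpf, 11 of the 12 caveolar genes were also higher, with a median of 0.14. There, 8 of the 11 junction genes were higher, with a median of 0.05, and no gene of either list passed.

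**Figure D2:**
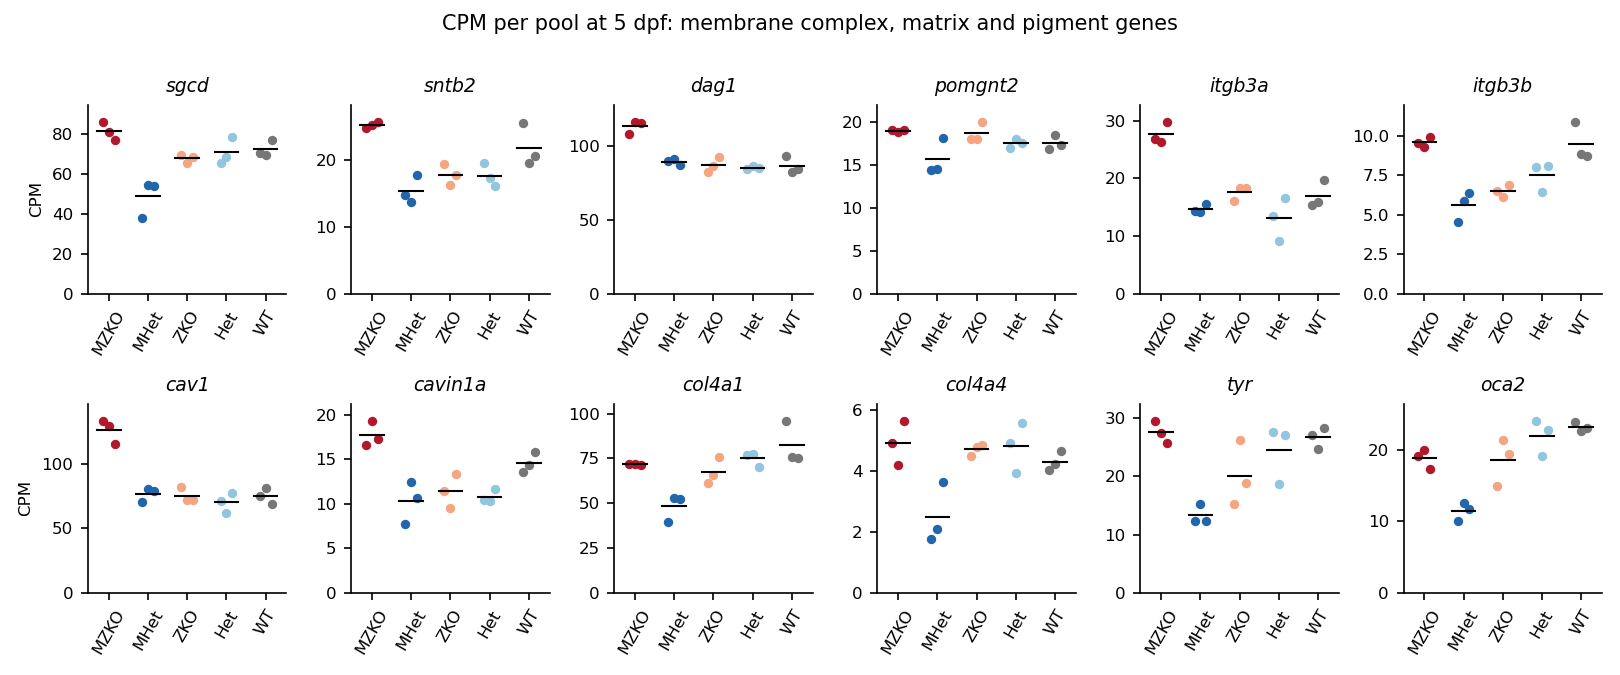
Expression in CPM (linear y axis) of genes for membrane and matrix proteins and of pigment genes in MZKO, MHet, ZKO, Het and WT pools at 5 dpf. Points are pools and bars are means of 3 pools. *sgcd* was at 77 to 86.2 CPM in MZKOs and 38 to 54.5 CPM in MHets, with 65.7 to 78.6 CPM in the offspring of +/- parents, whereas *itgb3a*, *dag1* and *cav1* were higher in MZKOs than in all other pools.

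Other groups each held 1 or 2 DEGs. In the pigment list these were *tyr*, the tyrosinase that starts melanin synthesis, at 29.6, 27.5 and 25.7 CPM in MZKOs and 12.4, 15.2 and 12.4 CPM in MHets (log2 1.05 ± 0.17, adjusted p = 0.00083), and the melanosome transporter *oca2* (log2 0.72). ZKOs averaged 20.2, Hets 24.5 and WTs 26.7 CPM of *tyr*, so that MHets were the low group, and the median of the 27 pigment genes was 0.06. The complement gene *c7a* rose by 1.11 but lost its call without MZKO pool 2, and *idi1* of cholesterol synthesis rose by 0.73. Genes picked after their values were seen included the cartilage proteoglycan *acanb*, at 21.6, 18.2 and 21 CPM in MZKOs and 10.6, 10.5 and 6 CPM in MHets (log2 1.16), the nuclear lamina gene *lmna* (0.72) and the endothelial tight junction gene *cldn5a* (0.80). Without MHet pool 1 the calls of *tyr*, *oca2* and *lmna* were lost, without MZKO pool 2 those of *oca2* and *lmna*, and without MZKO pool 3 or MHet pool 2 that of *idi1*.

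Of 25 genes of muscle wasting and of the brake on translation 5 were DEGs, all lower, and 9 were lower and 2 higher at an adjusted p of 0.05. The list median was -0.18 with 18 genes lower, and -0.12 with 14 genes lower when library totals replaced TMM. In ZKOs over Hets at 5 dpf, 18 of the 25 genes were also lower, with a median of -0.10, and none passed. Over all genes tested in MZKOs over MHets, 0.302% were lower DEGs and 4.34% were lower at an adjusted p of 0.05. *eif4ebp3l*, which encodes a 4E-binding protein that blocks cap-dependent translation, was at 53.4, 69.6 and 52.9 CPM in MZKOs and 118, 115 and 108 CPM in MHets (log2 -0.96 ± 0.11, adjusted p = 7.5e-06). *trim63a* encodes MuRF1, the ubiquitin ligase that marks sarcomere proteins for degradation, and was at 28, 39 and 35.3 CPM in MZKOs and 98.2, 104 and 93.2 CPM in MHets (log2 -1.53 ± 0.16, adjusted p = 6.1e-05). Its paralog *trim63b* fell by 0.78 with 24.3, 26.8 and 29.4 CPM in MZKOs and 46.6, 51.4 and 40.6 CPM in MHets. These 3 genes had no overlap between groups, and leaving out each of the 6 pools in turn, all fits called *eif4ebp3l* and *trim63a* while 1 called *trim63b*. *sesn1*, a sestrin that restrains mTORC1, was at 60.2, 59.7 and 62.2 CPM in MZKOs and 119, 108 and 87.8 CPM in MHets (log2 -0.79 ± 0.13, adjusted p = 0.0011). *ssh2a*, a slingshot phosphatase that activates the actin-severing protein cofilin, was at 18.2, 19.6 and 19.2 CPM in MZKOs and 33, 28.8 and 32.4 CPM in MHets (log2 -0.73 ± 0.12, adjusted p = 0.00048). *sesn1* lost the call without MHet pool 1 and *ssh2a* without MZKO pool 1 or MHet pool 1. For *trim63a* MZKOs lay below and MHets above all other 5 dpf pools. For *eif4ebp3l* and *ssh2a* only MZKOs lay outside the range of the others, and for *trim63b* and *sesn1* neither group did. Another 4E-binding protein gene, *eif4ebp2*, went the other way at 258, 256 and 223 CPM in MZKOs and 159, 182 and 177 CPM in MHets (log2 0.51 ± 0.09).

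*fbxo32* encodes atrogin-1, the other classical ubiquitin ligase of muscle atrophy. It was at 4.93, 25.9 and 4.2 CPM in MZKOs, against 78.6, 58.3 and 62.1 CPM in MHets. Every MZKO pool was below and every MHet pool above all remaining 5 dpf pools, but MZKO pool 2 stood above the other MZKO pools. The log2 fold change was -2.49 ± 0.55 with an adjusted p of 0.019, short of the 0.01 required for a DEG. Without MZKO pool 2 the log2 fold change was -3.86 and passed (adjusted p = 2.5e-05), and DESeq2 gave an adjusted p of 0.00035 with all pools.

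Further lower DEGs were *klhl38b* and others that were picked after their values were seen and stand for no pathway. *pdk2b*, a kinase that shuts off pyruvate dehydrogenase, was at 31, 54.5 and 32.2 CPM in MZKOs and 187, 179 and 145 CPM in MHets (log2 -2.12 ± 0.28). The mitochondrial carrier gene *ucp3* was at 20.6, 19.2 and 21.5 CPM in MZKOs and 61.7, 54.3 and 62.9 CPM in MHets (log2 -1.55 ± 0.18). *klhl38b*, a muscle kelch gene, was at 4.93, 12.6 and 3.17 CPM in MZKOs and 38.7, 38.1 and 36.4 CPM in MHets (log2 -2.44 ± 0.39, adjusted p = 0.0036), and MZKO pool 2 was again the highest of its group. The autophagy kinase gene *ulk1a* fell by 0.84 and the autophagy receptor gene *calcoco1b* by 1.41. The proteasome activator gene *psme4a* was lower than in MHets by 1.28. For *psme4a* MHets lay above all other 5 dpf pools, while MZKO pools were not all below the others. The growth hormone receptor gene *ghrb* fell by 1.15 and its feedback inhibitor *cish* by 0.94. The *ulk1a* call was lost without MHet pool 1, that of *psme4a* without MZKO pool 1 or 3 or MHet pool 1 or 3, and that of *klhl38b* without MZKO pool 1 or any 1 MHet pool. All 5 DEGs of the wasting list lost their call when the 5 and 10 dpf pools were fitted together, with adjusted p of 0.012 for *eif4ebp3l*, 0.024 for *ssh2a*, 0.034 for *trim63a*, 0.09 for *sesn1* and 0.012 for *trim63b*.

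**Figure D3:**
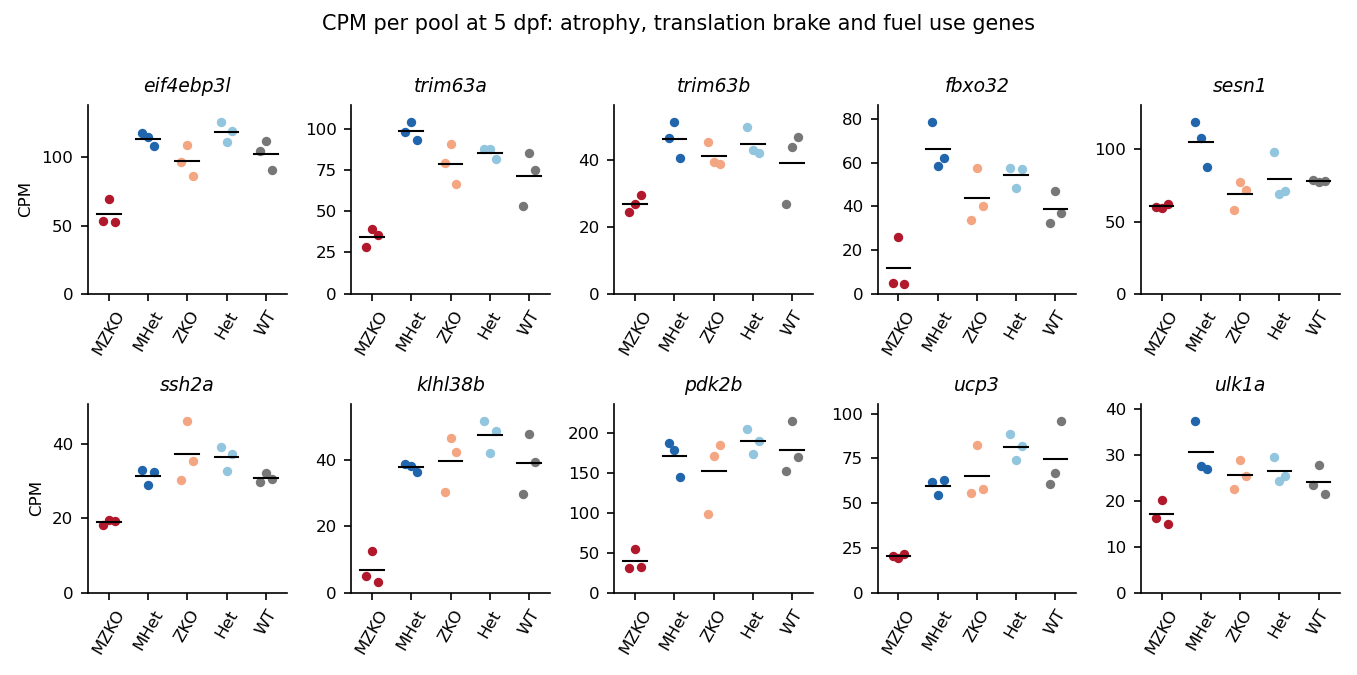
Expression in CPM (linear y axis) of 10 genes of muscle wasting, translation control, fuel use and autophagy in MZKO, MHet, ZKO, Het and WT pools at 5 dpf. Points are pools and bars are means of 3 pools. MZKO pools were below MHet pools in every panel, as in *pdk2b* with 31 to 54.5 CPM in MZKOs and 145 to 187 CPM in MHets, and MZKO pool 2 was the highest MZKO pool for *fbxo32*.

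For structural muscle genes, none of 17 skeletal myosin, 28 troponin and tropomyosin, 32 sarcomere scaffold and 25 triad genes was a DEG by edgeR. The triad genes passed an adjusted p of 0.05 in both directions, 5 higher and 3 lower. Of the 17 genes in the myosin list, which included the kinase gene *mylk2* (-0.72), 14 were lower. The list median was -0.18 on the log2 scale and -0.11 with library totals. Of the troponin and tropomyosin genes 5 passed an adjusted p of 0.05, all lower. They were led by the fast troponin T gene *tnnt3b* at 4099, 4017 and 3848 CPM in MZKOs and 5515, 5892 and 5173 CPM in MHets (log2 -0.47 ± 0.09). Among the scaffold genes 4 passed, all higher, including *myom1b*, a myomesin of the M band (log2 0.47).

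Most genes for ribosomes, proteasomes and oxidative phosphorylation had values below 0 but did not pass the test. Of 80 cytosolic ribosomal protein genes, 75 were lower and the list median was -0.20 on the log2 scale, and 11 passed an adjusted p of 0.05, all lower, while 69 did not pass. *rpl11* was at 751, 745 and 644 CPM in MZKOs and 1054, 968 and 989 CPM in MHets (log2 -0.49). Of 40 proteasome subunit genes, 39 were lower with a median of -0.20 and 8 passed, all lower, while 32 did not, such as the ATPase subunit gene *psmc5* (-0.45). Of 99 oxidative phosphorylation genes, 84 were lower with a median of -0.17, and 10 passed lower and 1 higher, while 88 did not, with the complex I gene *ndufb10* at -0.41. When library totals replaced TMM, 66 ribosomal genes were lower with a median of -0.13, 38 proteasome genes with a median of -0.14 and 75 oxidative phosphorylation genes with a median of -0.10. In ZKOs over Hets at 5 dpf, 74 of the 80 ribosomal genes were also lower, with a median of -0.11, and none passed. Medians there were -0.03 for oxidative phosphorylation genes and 0.09 for proteasome genes. No gene of these 3 lists was a DEG in MZKOs over MHets, where the median over all genes tested was -0.012. Of all genes tested there, 48.3% were higher, and 4.34% were lower at an adjusted p of 0.05.

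**Figure D4:**
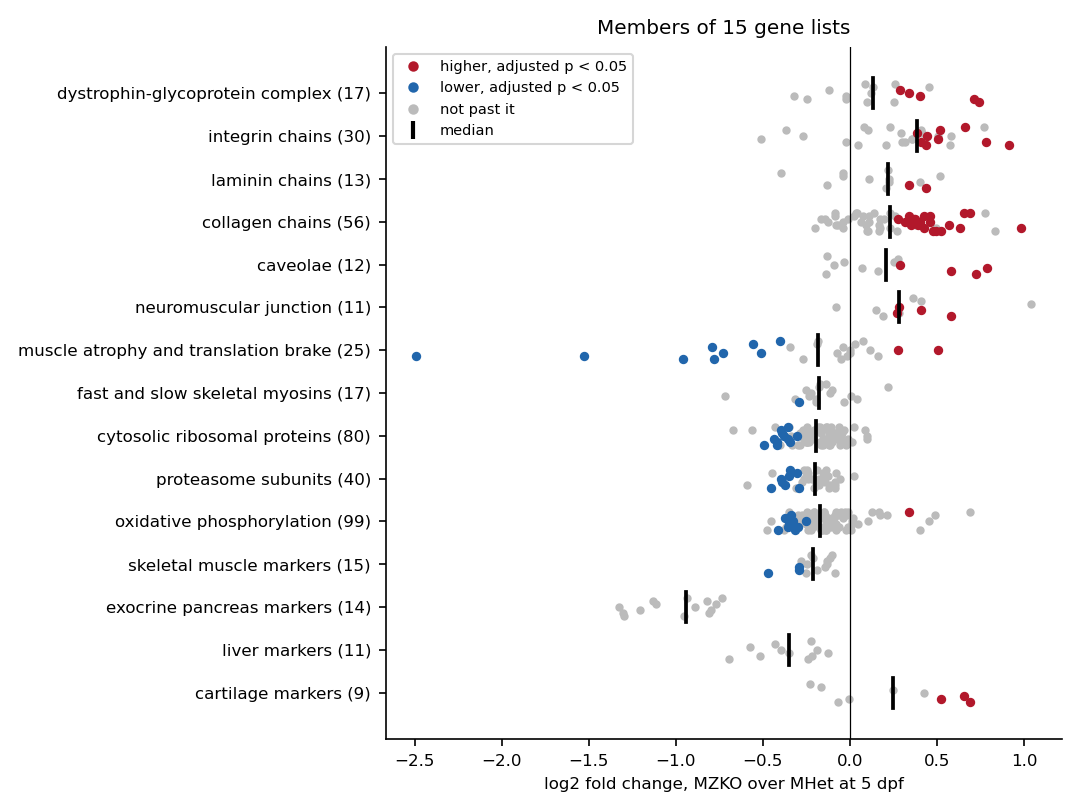
Log2 fold change (MZKO over MHet, 5 dpf) of each member of 15 gene lists. Each point is a gene, red and blue points passed an adjusted p of 0.05 in the higher and lower direction, and black ticks are list medians. Integrin, collagen and neuromuscular junction genes lay mostly above 0, with medians of 0.38, 0.23 and 0.28, while ribosomal protein and proteasome genes lay below 0 for 75 of 80 and 39 of 40 genes, each list with a median of -0.20.

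Markers of other tissues were read beside these groups. All 15 skeletal muscle markers were lower, by a median of -0.21 on the log2 scale, 3 passing an adjusted p of 0.05, and their summed level was 92221, 90081 and 104690 CPM in MZKOs and 110940, 113185 and 104333 CPM in MHets. All 14 exocrine pancreas markers were lower with a median of -0.94 and none passed, since MZKO pools summed to 1195, 949 and 630 CPM and MHet pools to 2098, 961 and 2411 CPM. All 11 liver markers were lower with a median of -0.35 and none passed. Of 10 lens markers 9 were lower and 4 passed, including the crystallin gene *crybb1* (-0.55), and of 9 cartilage markers 5 were higher and 4 lower, and 3 passed, all higher and all collagens, including *col2a1a* (0.65, adjusted p = 0.016). Medians of the other marker lists were -0.43 for intestine, -0.30 for erythrocytes, 0.30 for macrophages and neutrophils, -0.11 for photoreceptors with 3 passing lower, -0.10 for neurons and glia with 2 passing lower and 1 higher, and -0.10 for skin with 1 passing higher. Heart (-0.01) and ionocyte (-0.05) medians turned positive with library totals. In ZKOs over Hets at 5 dpf, all 14 pancreas, all 11 liver and all 9 intestine markers were also lower. Their medians there were -0.83, -0.86 and -0.29, and none passed. By contrast, medians in ZKOs over Hets were 0.04 for skeletal muscle, -0.05 for lens and 0.02 for cartilage markers. No marker of these lists was at 0 in all 6 pools. The part of tissue proportions in the changes above was not tested.

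MZKO pool 2 differed from its replicates in liver-derived genes. It was the highest MZKO pool for 27 of 34 complement genes and 17 of 21 clotting genes, and complement genes summed to 634, 1361 and 458 CPM in MZKOs and 658, 693 and 705 CPM in MHets. The matching share over all genes tested is not given here, so these counts are a description. The complement gene *c3a.2*, chosen after its values were seen, was at 27.9, 168 and 14.7 CPM in MZKOs and 15.6, 11.5 and 16.1 CPM in MHets (adjusted p = 0.12). The heart peptide gene *nppa* was at 2.66, 12.9 and 3.06 CPM in MZKOs and 1.73, 2.54 and 2.13 CPM in MHets. The median of the complement list was 0.11 with this pool and -0.289 without it.

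The same own-genotype contrast in offspring of +/- mothers, ZKO over Het, gave no DEG (0%) by edgeR in the fit of the 15 pools. In that fit 1781 genes had an unadjusted p under 0.05, and DESeq2 called 16. With only the 6 pools compared, edgeR called 51 genes for ZKO over Het, all lower, and 285 for MZKO over MHet. Of the 220 DEGs, 126 (57.3%) had the same sign in ZKOs, against 49% of all genes tested, and 16 of them did so at an unadjusted p under 0.05. The 145 higher DEGs had a median log2 fold change of 0.02 in ZKOs over Hets, and the 75 lower DEGs one of -0.08. The test of the difference itself, the interaction of own and mother's genotype, called 47 genes as higher (0.189%) and 30 as lower (0.121%). That total of 77 became 194 with DESeq2, 133 higher and 61 lower, 43 with all 21 pools, and 33 without Het pool 3, so it depends on the tool and the pools used. *mturn* differed by 2.70 ± 0.19 (adjusted p = 1.3e-08), *adpgk2* by 3.17, *snx6* by 2.59, *acin1a* by -1.21 and *trim63a* by -1.41 ± 0.22 (adjusted p = 0.0063). *qdpra* differed by 1.20 ± 0.14, since it was higher in MZKOs than in MHets by 0.78 while ZKOs over Hets gave -0.43 (adjusted p = 0.22). For *itgb3a* the interaction of 0.49 (adjusted p = 0.24), and for *eif4ebp3l* that of -0.67 (adjusted p = 0.018), did not pass. Mother's genotype and the kind of cross cannot be told apart here.

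**Figure D5:**
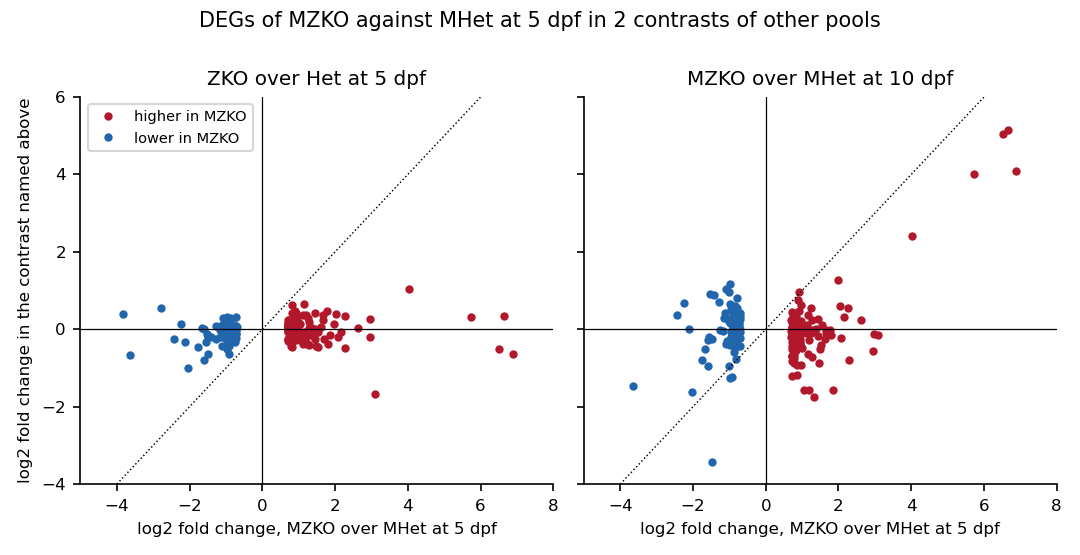
Log2 fold change of the DEGs in MZKOs over MHets at 5 dpf (x axis) against ZKOs over Hets at 5 dpf (220 genes) and against MZKOs over MHets at 10 dpf (218 genes). Each point is a gene and the dotted line marks equal changes. The same sign was shared by 126 of 220 genes with ZKOs over Hets and by 76 of 218 genes with MZKOs over MHets at 10 dpf, where *jac9* lay at 6.52 on the x axis and 5.04 on the y axis.

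At 10 dpf the comparison of MZKOs with MHets, in separate pools of a second batch, called 4 genes as higher (0.017%) and 6 as lower (0.0254%) of 23597 tested. Per the study's methods, larvae for 10 dpf were kept apart by genotype until then, so genotype and housing cannot be told apart at this age. These 10 calls by edgeR do not mean that little differed at 10 dpf, since 4746 genes had an unadjusted p under 0.05, DESeq2 called 98 as higher and 551 as lower, and edgeR called 212 without MHet pool 2 and 47 without MZKO pool 3. Of the 218 DEGs from 5 dpf that were tested, 76 (34.9%) had the same sign at 10 dpf, against 42.3% of all genes, and 4 were DEGs at both ages by edgeR with all pools, all in the same direction. These were *jac6* (log2 6.88 at 5 dpf and 4.10 at 10 dpf), *jac9* (6.52 and 5.04), *si:ch211-59p23.1* (4.03 and 2.40) and the interleukin subunit gene *ebi3* (-1.49 and -3.42). *jac8* was at 102, 106 and 72.2 CPM in MZKOs and 4.85, 8.91 and 3.37 CPM in MHets at 10 dpf, without passing (adjusted p = 0.021). *mturn* no longer differed detectably, at 47.5, 59.1 and 76.7 CPM in MZKOs and 68.6, 75.6 and 54.5 CPM in MHets. The spread between 10 dpf pools was wide, as for *trim63a*, at 140, 181 and 33.9 CPM in MZKOs and 60.2, 69.1 and 59.6 CPM in MHets.

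The difference between the ages, tested in 1 fit of all 21 pools, was called for 570 genes (2.25%) in the higher and 343 (1.35%) in the lower direction at 5 dpf relative to 10 dpf. Membrane and matrix genes were among them, with *sgcd* differing by 1.13, *itgb3b* by 1.44, *cav1* by 1.06, *cavin1a* by 1.66 and *col4a1* by 1.05. Medians at 10 dpf were -0.31 for integrins, -0.39 for collagens and -0.24 for the DGC list, opposite in sign to those at 5 dpf. *tyr* differed most of the named membrane and pigment genes, by 2.61, with 7.34, 4.1 and 3.01 CPM in MZKOs and 13.1, 9.37 and 21 CPM in MHets at 10 dpf. Age, batch and the housing by genotype before 10 dpf cannot be told apart in this comparison.

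Larvae sorted by genotype at one gene can also share alleles of its neighbors, so the position of the DEGs relative to *pomgnt2* was examined by gene order in RefSeq (assembly GRCz12tu). Of the DEGs 180 (81.8%) could be placed, as could 79.1% of all genes tested. The chromosome of *pomgnt2* held 10 placed DEGs (5.56%) and 4.45% of the placed genes tested. Among the 100 tested genes within 50 genes on either side of *pomgnt2* none was a DEG by edgeR and 14 passed an adjusted p of 0.05. Over all genes tested 0.584% were higher and 0.302% lower DEGs, and 5.31% were higher and 4.34% lower at an adjusted p under 0.05. With DEGs this rare, 100 genes were too few to show a lack of them near *pomgnt2*. An effect of shared neighboring alleles was not tested. The nearest DEG was *cnih4*, 76 genes away. Of the genes named above, *lenep* lay 227, *klhl38b* 290 and *lmna* 408 genes away on the same chromosome. Elsewhere, the most significant gene *mturn* lies beside *znrf2a*, a ubiquitin ligase gene chosen for this position, which was at 4.09, 3.81 and 5.29 CPM in MZKOs and 7.78, 8.84 and 9.43 CPM in MHets (log2 -0.98 ± 0.21, adjusted p = 0.0035) and was called in 1 of 6 fits with a pool left out.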

How the data were processed

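Polyadenylated RNA from pools of whole larvae was sequenced as directional libraries. Per the labels and the study's methods, the authors trimmed reads with Trim Galore, aligned them to GRCz11 with HISAT2 and, after SAMtools, assigned them to genes with featureCounts and the Lawson annotation; the strand and multi-mapping options were not given in the sources used here. The authors deposited 1 table of raw counts per gene, not normalized, for 21 pools in 7 groups. Samples were grouped by their labels.

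Counts were tested with edgeR 4.0.16 (R 4.3.3) by the quasi-likelihood test with robust dispersion, TMM scaling and filterByExpr, on the 15 pools at 5 dpf, so that 5 groups shared one estimate of spread. The 10 dpf pools were fitted alone, and the difference between ages in a fit of all 21. Benjamini-Hochberg adjustment ran over all genes tested. DEGs needed, as in the study, an adjusted p below 0.01 with a log2 fold change beyond 0.7 in either direction. Standard errors were derived from the F statistic and restate it. CPM used TMM-scaled library sizes. The procedure was tested on simulated data. Of the gene symbols, 242 were repeats, and genes were kept by identifier.

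Genes named were 9 that the study discusses for membrane and muscle, the 15 higher and 15 lower DEGs with the smallest p and no overlap between pools, the 5 with the largest change in each direction, the 5 in each direction leading the interaction, and, within 43 gene lists, DEGs and up to 4 further members by p. Others are marked in the text as chosen after their values were seen. Some genes that a name pattern had caught by mistake were taken out of the lists. *col4a3bpa* and *col4a3bpb* stayed in the collagen list, and the kinase gene *mylk2* in the myosin list. The comparison, members and lists were chosen with earlier results of these data known.

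Alternatives were DESeq2 1.42.0, its size factors, library totals (added after seeing the data), no filter or a minimum of 10 counts, other thresholds, other sets of pools, the replicate number as a block and leaving out each pool. Same-numbered MZKO and MHet pools did not deviate together, so the numbers were not treated as pairs. Gene order came from RefSeq, matched by symbol or identifier.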

Additional observations from a re-analysis of the deposited data

Results flagged for a closer look

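Genes named above are given here when the effect of a larva's own genotype differed between settings by the edgeR test of the difference itself, at an adjusted p below 0.01 and a difference beyond 0.7 log2 units in either direction. Groups held 3 pools, too few for a formal outlier test, and the values of MZKO pool 2 given above are a description.

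The first set differed between offspring of -/- and of +/- mothers at 5 dpf, and the values are log2 differences of MZKO over MHet minus ZKO over Het. Positive differences were 2.70 for *mturn*, 3.17 for *adpgk2*, 2.59 for *snx6*, 2.22 for *ube2j2*, 0.97 for *ldb1b*, 1.64 for *OSBPL8*, 0.77 for *efhd2*, 2.27 for *acvr2ba*, 1.23 for *ccdc50*, 1.33 for *ptprga* and 1.85 for *lenep*. The other positive ones were 1.99 for *LOC108179656*, 0.74 for *tmod2*, 0.82 for *ywhae2*, 0.78 for *pmp22b*, 1.20 for *qdpra*, 0.80 for *sgcd*, 1.33 for *tyr*, 0.96 for *oca2* and 0.95 for *idi1*. Negative differences were -0.90 for *dusp27*, -1.21 for *acin1a*, -1.07 for *prkg1b*, -4.23 for *XLOC_042919*, -2.99 for *zgc:153846*, -1.37 for *rab11fip1b*, -1.29 for *gls2b*, -0.81 for *cebpd*, -1.03 for *pho*, -0.91 for *nkap*, -2.37 for *tnks1bp1*, -3.33 for *LOC108190134*, -0.80 for *ubb* and -1.41 for *trim63a*. Mother's genotype and kind of cross cannot be told apart.

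The second set differed between ages, and the values are log2 differences of MZKO over MHet at 5 dpf minus that at 10 dpf. Age, batch and the housing by genotype before 10 dpf cannot be told apart. Among the genes with the smallest p at 5 dpf the difference was 3.09 for *mturn*, 3.51 for *adpgk2*, 2.40 for *snx6*, 1.84 for *ube2j2*, 0.75 for *ldb1b*, 1.42 for *OSBPL8*, 1.08 for *efhd2*, 2.29 for *acvr2ba*, 1.04 for *ccdc50*, 1.38 for *ptprga*, 1.68 for *jarid2b* and 3.44 for *LOC108179656*. Further positive differences were 0.94 for *tmod2*, 1.12 for *ywhae2*, 1.21 for *pmp22b*, 1.08 for *qdpra*, 1.13 for *sgcd*, 1.13 for *sntb2*, 1.44 for *itgb3b*, 0.75 for *itgav*, 1.05 for *col4a1*, 1.06 for *cav1*, 1.66 for *cavin1a* and 0.99 for *cavin1b*. The last positive ones were 1.11 for *lamb2*, 0.72 for *colq*, 2.61 for *tyr*, 1.42 for *oca2*, 1.20 for *c7a*, 1.43 for *idi1*, 0.99 for *cnih4*, 1.43 for *myom1b*, 1.81 for *acanb*, 1.22 for *lmna* and 0.86 for *cldn5a*. In the negative direction they were -1.63 for *znrf2a*, -1.18 for *acin1a*, -0.93 for *adipor2*, -3.39 for *XLOC_042919*, -1.48 for *eif4ebp3l*, -1.23 for *gls2b*, -0.95 for *nkap*, -1.24 for *pde6ha*, -2.92 for *tnks1bp1*, -0.96 for *ubb*, -1.45 for *ulk1a*, -2.11 for *pdk2b*, -1.42 for *ghrb* and -0.75 for *psmc5*. *XLOC_042919* did not pass the filter on low counts in the fit of the 10 dpf pools alone, so its value at that age is uncertain.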

How the results depend on the processing

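The count of 220 DEGs stayed within 1.5 times, between 171 and 292, under DESeq2, its size factors, both filters, library totals, the 6 compared pools alone, all 21 pools and the replicate block (231). It was 367 at an adjusted p under 0.05 and 992 without a limit on fold change, and ranged from 114 (without MHet pool 1) to 222 when a pool was left out. The 77 interaction calls became 194 with DESeq2, 43 with all 21 pools, 127 without a filter and 273 at an adjusted p under 0.05, and ranged from 33 to 84 with a pool left out. ZKO against Het had 16 DEGs with DESeq2, 51 with its 6 pools alone, 1 with the replicate block, and 0 to 1 with a pool left out. The 10 DEGs at 10 dpf became 649 with DESeq2, 164 without a filter, 365 with the replicate block and 298 at an adjusted p under 0.05, and ranged from 4 to 212 with a pool left out (212 without MHet pool 2, 47 without MZKO pool 3). The 913 calls between ages became 1462 with DESeq2 and 1954 at an adjusted p under 0.05, and ranged from 469 to 1337. The causes were not tested.

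The replicate numbers showed no pairing. Deviations of same-numbered MZKO and MHet pools correlated at -0.05, -0.05 and -0.07 at 5 dpf, where no pool correlated best with its own number, and at -0.17, 0.12 and -0.05 at 10 dpf, where only those numbered 2 did. No gene named by the rules reversed, and of 70 such DEGs 32 kept their call throughout, while 16 lost it in the fit of all 21 pools, 5 with library totals and 4 with DESeq2. Of 43 list medians 8 changed sign under at least 1 alternative. With 3 pools a group and a floor of 0.137 to 0.156 CPM, low genes such as *XLOC_042919* are the least precise.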

Other observations

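The DEGs were also set against age, as a description added after the data were seen. The level in 10 dpf MHets was compared with the mean of WTs, Hets and ZKOs at 5 dpf. Of the 145 genes higher in MZKOs, 88 (60.7%) were higher at 10 dpf, with a median log2 difference of 0.16. Of the 75 genes lower in MZKOs, 52 (69.3%) were lower at 10 dpf, with a median of -0.35. Over all genes tested 48.6% were higher and 51.4% lower, with a median of -0.01. Among the examples, *mturn* was at 68.6, 75.6 and 54.5 CPM in 10 dpf MHets, against means of 10.7 in ZKOs, 8.89 in Hets and 8.79 CPM in WTs at 5 dpf. The 10 dpf MHets came from -/- mothers, while the 5 dpf pools in this comparison came from +/- parents and held 3 genotypes. Age, batch, housing, mother's genotype, kind of cross and own genotype therefore cannot be told apart, and this comparison was not tested.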
